A study of Mus musculus with 50 samples.

Results

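A set of 10 core genes of the circadian clock were followed in mouse gastrocnemius muscle over 6 ages. The members were the rows of the expression table that carry the symbols Arntl, Clock, Npas2, Per1, Per2, Per3, Cry1, Cry2, Nr1d1 and Dbp, 10 of 23880 genes, and each symbol was found in the table. The animals were wild type males of the inbred strain C57BL/6JRj, 50 in all with 1 library each. The groups of 8, 18, 22 and 24 months held 8 mice apiece, and those of 26 and 28 months held 9. All were caged singly and fed the purified diet AIN93M under a fixed cycle of light and dark, and the study excluded animals that showed tumors or overt signs of disease. Diet history was not equal: the mice of 8 and 18 months were accustomed to this diet before dissection, whereas those of 22 to 28 months had received it since middle age, so that age and diet history cannot be told apart in comparisons of these older ages with 8 months. The time of day at which each muscle was taken is not given in the sources used here. Its part in the values below was not tested.

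The clock is a feedback loop of transcription that runs once a day in nearly every cell, muscle fibres included. Arntl, also called Bmal1, pairs with Clock or with its relative Npas2, and the pair binds E-boxes and switches on the genes Per1, Per2, Per3, Cry1, Cry2, Nr1d1 and Dbp. PER and CRY proteins then return to the nucleus and repress the pair. Nr1d1, known as Rev-erb alpha, represses Arntl through ROR elements, and Dbp, a transcription factor that binds D-boxes, carries the rhythm to output genes. Arntl and Npas2 RNA are known to peak at about the opposite time of day to Nr1d1, Dbp and Per3, so a single sample per animal reads both how strongly these genes are expressed and the phase at which the muscle was taken.

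Promoters from RefSeq for GRCm38.p6 (250 bases before to 50 after a start of transcription) are shown for the 4 members with the largest differences in opposite directions between 28 and 8 months, Cry2 and Per1 upwards and Dbp and Nr1d1 downwards, since these members share the same activators. They are written 5′ to 3′ on the strand of the gene, and capitals mark a match to a motif that was searched on both strands. The Cry2 window lies on the minus strand at chr2:92434020-92434319, the Per1 window, the first of the 2 Per1 windows listed, on the plus strand at chr11:69098699-69098998, the Dbp window on the plus strand at chr7:45704997-45705296 and the Nr1d1 window on the minus strand at chr11:98775328-98775627.
Cry2: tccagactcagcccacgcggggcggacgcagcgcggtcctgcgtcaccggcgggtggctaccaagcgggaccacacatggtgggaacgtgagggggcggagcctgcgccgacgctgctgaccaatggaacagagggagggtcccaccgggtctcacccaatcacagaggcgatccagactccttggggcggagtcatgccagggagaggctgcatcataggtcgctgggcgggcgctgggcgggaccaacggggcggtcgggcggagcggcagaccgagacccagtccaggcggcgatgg
Per1: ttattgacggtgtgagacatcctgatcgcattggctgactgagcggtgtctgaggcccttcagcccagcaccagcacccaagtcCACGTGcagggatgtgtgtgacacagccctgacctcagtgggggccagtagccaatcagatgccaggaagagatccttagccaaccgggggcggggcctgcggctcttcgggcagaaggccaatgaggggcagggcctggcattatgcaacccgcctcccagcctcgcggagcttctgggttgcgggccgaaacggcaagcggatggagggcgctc
Dbp: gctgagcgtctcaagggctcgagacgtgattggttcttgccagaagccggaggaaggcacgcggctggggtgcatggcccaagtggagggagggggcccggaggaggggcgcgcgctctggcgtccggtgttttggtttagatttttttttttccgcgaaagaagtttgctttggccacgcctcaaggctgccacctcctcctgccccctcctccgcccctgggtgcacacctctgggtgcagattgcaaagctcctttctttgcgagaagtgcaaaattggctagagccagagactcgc
Nr1d1: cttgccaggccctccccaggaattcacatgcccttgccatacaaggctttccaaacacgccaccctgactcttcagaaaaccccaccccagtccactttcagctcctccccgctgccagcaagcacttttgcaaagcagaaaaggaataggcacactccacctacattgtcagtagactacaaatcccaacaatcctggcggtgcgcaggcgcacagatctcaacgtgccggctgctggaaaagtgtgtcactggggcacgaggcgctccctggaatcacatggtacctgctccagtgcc

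The search covered 3 motifs, the E-box CACGTG, which reads the same on both strands, the D-box core TTATGTA or TTACGTA, and the ROR element TAGGTCA or TGGGTCA. Of 32851 promoter windows of this length, 7.15% held the E-box, 3.09% the D-box core and 6.45% the ROR element. Counted per gene over all its windows, the shares were 8.09%, 3.56% and 7.35% of 27025 genes. A window was listed for 9 of the 10 members, all but Per2. Of these 9, 2 held the E-box, 1 the D-box core and 1 the ROR element. Per1 had an E-box at position -166 from its first start, and Cry1 had one at position -60. Per3 had 2 copies of the D-box core TTATGTA, at positions -205 and -158. Arntl had the ROR element TAGGTCA at position 30 after the second of its 2 listed starts. These matches are letters in a window and were not measured as binding sites. In the annotation GENCODE vM21, also on GRCm38, Cry2 spans chr2:92403646-92434043 on the minus strand, Per1 chr11:69095217-69109960 on the plus strand, Nr1d1 chr11:98767932-98775333 on the minus strand and Dbp chr7:45705088-45710203 on the plus strand. The Cry2 and Nr1d1 starts of RefSeq lie outside the transcripts of that annotation.

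The libraries held between 13607229 and 21267375 counts, with a median of 16521368.5. Values per mouse are given as CPM, read counts relative to library size scaled with the TMM factors of edgeR, and levels of different genes are compared only as TPM, which also accounts for transcript length. Of 23880 genes, 12586 reached at least 1 CPM in at least 8 mice and were tested. This filter was passed by 9 of the 10 members. Markers of fast muscle fibres, the main fibres of gastrocnemius, summed to between 108800 and 175500 TPM at 28 months and between 131800 and 157700 TPM at 8 months, so the markers of the labelled tissue were abundant in every mouse of both ages, and each of the 4 lymphocyte markers was below the filter.

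On the TPM scale, the members ranked by their median over the 50 mice as Dbp (81.3 TPM), Nr1d1 (69.5), Per1 (44.7), Cry2 (43.1), Cry1 (12.5), Clock (10.8), Arntl (9.11), Per2 (8.09), Per3 (7.18) and Npas2 (0.212). The repressors Nr1d1, Per1 and Cry2 and the output gene Dbp were thus the abundant members, and the activators were low. The ranges of neighbours in this order overlapped, with 2 exceptions. Cry2 lay between 21.1 and 252 TPM, above the 8.72 to 17.1 TPM of Cry1, and Per3 lay between 2.88 and 12.5 TPM, above the 0.0214 to 0.68 TPM of Npas2. Npas2 had between 1 and 23 counts in a library and reached 1 CPM in 2 mice, so it was not tested between ages.

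**Figure D1:**
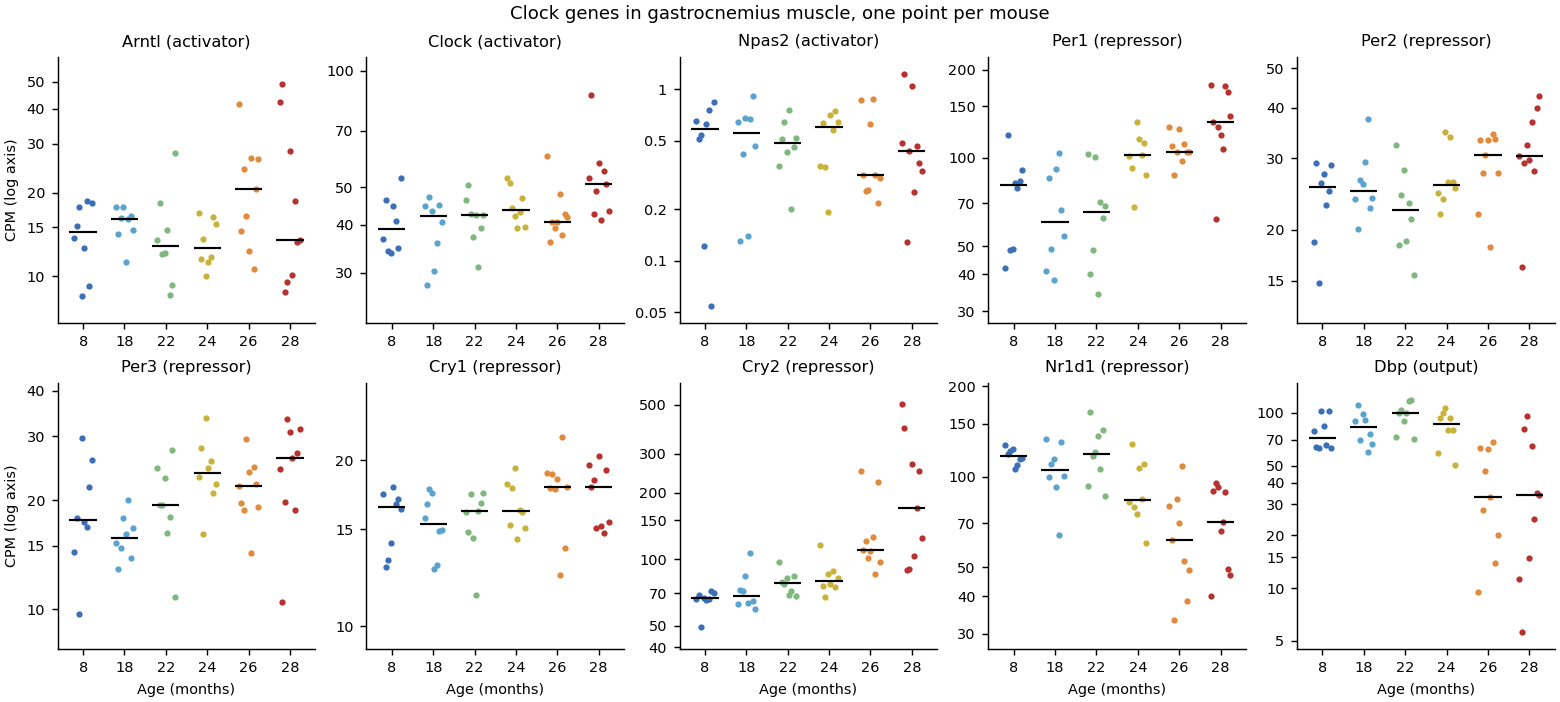
Normalised level of each of the 10 clock genes in CPM (log axis, scaled separately for each gene) against age in months. Each point is 1 mouse and each line the median of an age. Cry2 of all 9 mice at 26 and at 28 months lies above the highest mouse of 8 months (71.7 CPM), and Dbp spreads from 5.64 to 95.6 CPM at 28 months.

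Up to 24 months no member was called different from 8 months. With edgeR's quasi-likelihood test at an FDR below 0.01, 0 of 9 members passed at 18 months, where 0.0715% of all genes tested passed, 0 of 9 at 22 months (0.0397% of all genes) and 0 of 9 at 24 months (0.612%). At an unadjusted p under 0.05 the numbers were 0, 0 and 1, the last being Per1 at 24 months, against 3.65%, 9.01% and 19.2% of all genes. DESeq2 and limma on TPM also called 0 at each of these ages. At 26 months 2 of 9 members passed, Cry2 upwards and Nr1d1 downwards, against 18.4% of all genes (9.84% upwards and 8.54% downwards). At 28 months 4 of 9 passed, Cry2, Per1 and Clock upwards and Nr1d1 downwards, against 39.6% of all genes (21% upwards and 18.7% downwards). The share of members at these ages is near that of all genes. The comparisons share the mice of 8 months as their reference. In the F test over all 6 ages 4 of 9 members passed, Per1, Cry2, Nr1d1 and Dbp, against 35.4% of all genes.

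No step between neighbouring ages carried a call. Between 18 and 22 months 0 of 9 members passed, against 0.00795% of all genes. Between 22 and 24, 24 and 26, and 26 and 28 months 0 of 9 passed in each step, and the share of all genes was 0% in each. At an unadjusted p under 0.05 there were 0 members in the step from 18 to 22 months (4.15% of all genes) and 2, Per1 and Nr1d1, in the step to 24 months (3.8% of all genes). There were 4 in the step to 26 months (Arntl, Cry2, Nr1d1 and Dbp), against 17.5% of all genes, and 2 in the step to 28 months (Clock and Cry2), against 12.8%. DESeq2 and limma on TPM also called 0 members in each step. The median log2 fold change of the 9 members against 8 months was 0.15 at 24 months, 0.17 at 26 months and 0.39 at 28 months, beside 0.01 for all genes tested at 28 months.

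**Figure D2:**
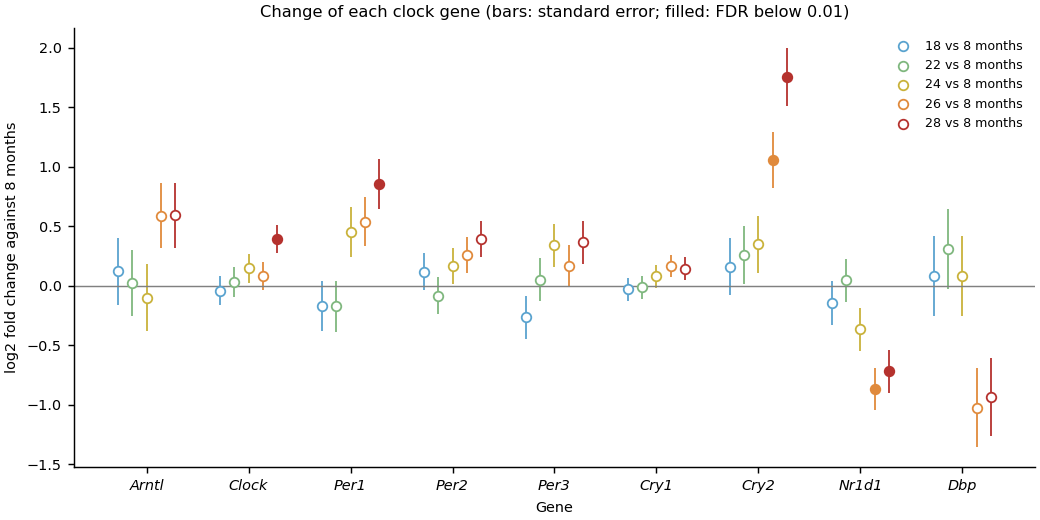
Log2 fold change of the 9 members tested at each older age against 8 months, with the standard error of the fit as bars and filled points for an FDR below 0.01. Filled points are Cry2 and Nr1d1 at 26 months and Cry2, Per1, Clock and Nr1d1 at 28 months, and only Nr1d1 of these lies below 0.

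Among the activators, Arntl (Ensembl ID ENSMUSG00000055116), the partner shared by Clock and Npas2, lay between 8.52 and 18.7 CPM at 8 months with a median of 14.4 CPM. At 26 months its lowest, median and highest values were 10.6, 20.5 and 41.6 CPM, and at 28 months they were 8.77, 13.5 and 49.1 CPM. The 8-month range was exceeded by 5 of 9 mice at 26 months and 3 of 9 at 28 months, and none fell under it. The log2 fold change was 0.59 (SE 0.27, FDR 0.0828) at 26 months and 0.59 (SE 0.27, FDR 0.0609) at 28 months, and neither passed. Without replicate 2 of 28 months, its highest mouse, the latter value was 0.33 (FDR 0.286). The 3 mice of 28 months with the highest values, replicates 1, 2 and 5, stood at 42.4, 49.1 and 28.3 CPM.

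Clock, the histone acetyltransferase partner of Arntl, lay between 33.8 and 52.9 CPM with a median of 38.9 CPM at 8 months. At 28 months it lay between 41.2 and 86.7 CPM with a median of 51.0 CPM, and 4 of 9 mice were above the 8-month range. Clock rose by a log2 fold change of 0.39 (SE 0.12, FDR 0.0051) at 28 months, the smallest change among the members called. Replicate 2 of 28 months held the highest value, and without it the log2 fold change was 0.27 with an FDR of 0.0326. The call was also lost without replicate 1, 3, 4 or 7 of 8 months (log2 fold changes of 0.38, 0.36, 0.36 and 0.36), with upper-quartile factors (FDR 0.0114) and in a fit on these 2 ages alone (FDR 0.0256). Npas2, the relative of Clock, had medians of 0.586 CPM at 8 months and 0.439 CPM at 28 months, where single mice lay between 0.129 and 1.23 CPM. Its ranges at the 2 ages overlapped, and no fold change is given at this depth.

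Of the repressors, Cry2 (ENSMUSG00000068742), a cryptochrome that blocks the activator pair, had the largest change at 28 months. It lay between 49.2 and 71.7 CPM with a median of 66.6 CPM at 8 months. Medians of 68.3, 78.2 and 79.7 CPM at 18, 22 and 24 months were followed by 110 CPM at 26 months and 170 CPM at 28 months. At 26 months the mice lay between 85.4 and 252 CPM and at 28 months between 89.1 and 502 CPM, so at both ages every mouse was above the 8-month range. Among all genes tested, 1.49% had every mouse of 26 months above the 8-month range, and 2.46% had every mouse of 28 months above it. Cry2 rose by a log2 fold change of 1.06 (SE 0.24, FDR 0.000844) at 26 months and 1.76 (SE 0.24, FDR 2.47e-07) at 28 months, a fold of 3.38. Its relative Cry1 did not pass at either age. Cry1 had a median of 16.5 CPM at 8 months and 17.9 CPM at 28 months, and its log2 fold change at 28 months was 0.14, with a 95% interval from -0.04 to 0.33.

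The period genes encode the proteins that join the cryptochromes in the repressor complex. Per1 lay between 41.9 and 120 CPM with a median of 80.7 CPM at 8 months, and between 61.7 and 177 CPM with a median of 133 CPM at 28 months. At 28 months 7 of 9 mice were above the 8-month range. Per1 rose at 28 months by a log2 fold change of 0.85 (SE 0.21, FDR 0.000644). At 26 months its value was 0.54 (SE 0.21, FDR 0.0382), which did not pass. Per2 and Per3 had log2 fold changes of 0.39 (SE 0.15, FDR 0.0244) and 0.36 (SE 0.18, FDR 0.0777) at 28 months. Without replicate 2 of 28 months, whose Per2 level of 16.2 CPM and Per3 level of 10.5 CPM were the lowest of that age, Per2 passed with a log2 fold change of 0.48 (FDR 0.00448).

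Nr1d1 (ENSMUSG00000020889), the nuclear receptor that represses Arntl, went the other way. Its levels at 8 months lay within 106 to 128 CPM, with a median of 117 CPM. The median was 83.4 CPM at 24 months, 61.7 CPM at 26 months and 70.5 CPM at 28 months. At 26 months 8 of 9 mice were below the 8-month range, with values between 33.5 and 108 CPM. At 28 months all 9 mice were below it, between 40.1 and 95.3 CPM, which was so for 2.24% of all genes tested. The 8-month range was narrow, and 4, 3 and 5 of 8 mice at 18, 22 and 24 months were also below it. Another 2, 3 and 1 of 8 were above it. The ranges at these ages, 64.2 to 134, 86.0 to 164 and 60.1 to 129 CPM, overlapped that of 28 months. The log2 fold change was -0.87 (SE 0.18, FDR 0.000366) at 26 months and -0.72 (SE 0.18, FDR 0.000775) at 28 months. The other 8 members tested did not share this pattern of a fall that passed the test at both ages.

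Dbp (ENSMUSG00000059824), the output factor, had the largest spread. It lay between 62.6 and 102 CPM at 8 months with a median of 72.2 CPM, and the medians were 82.7, 99.8 and 86.1 CPM at 18, 22 and 24 months. At 26 months the lowest, median and highest values were 9.55, 33.04 and 68.4 CPM, and at 28 months they were 5.64, 33.9 and 95.6 CPM. At 26 months 7 of 9 mice and at 28 months 6 of 9 were below the 8-month range, while the others lay within it. The log2 fold changes of -1.02 (SE 0.33, FDR 0.0149) at 26 months and -0.93 (SE 0.33, FDR 0.0154) at 28 months missed the threshold, although Dbp passed over the 6 ages (FDR 0.00114). On TPM with limma it passed at both ages (log2 fold changes of -1.24 and -1.30, FDR 0.00611 and 0.00158). It also passed with replicate 3, 4 or 6 of 28 months left out (log2 fold changes of -1.13, -1.20 and -1.04). The same held with replicate 2, 5 or 7 of 26 months left out (-1.14, -1.14 and -1.17). These are the 3 mice of each age with the highest Dbp, so leaving 1 out deepens the fall. With each of the other 14 of 17 mice left out Dbp did not pass, and the FDR reached 0.0362 at 26 months and 0.0355 at 28 months. Among the 6 alternatives at 28 months Dbp passed in 1, and the highest FDR was 0.0684. With the replicate number of the labels as a block the value at 26 months was -1.07 with an FDR of 0.00941. In bulk muscle, fewer cells that express a gene and less RNA per cell cannot be told apart.

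The activators did not move against the repressors as 2 blocks. The 3 members that rose at 28 months comprise an activator and 2 repressors, and the member that fell is a repressor. The mean log2(CPM + 0.5) of the 3 activators minus that of the 6 repressors had a median of -2.16 at 8 months, -2.43 at 26 months and -2.68 at 28 months, and the ranges overlapped (-2.92 to -1.75 at 8 months and -2.81 to -1.36 at 28 months). A split by known time of peak, Arntl and Npas2 against Nr1d1, Per3 and Dbp, had a median of -3.71 at 8 months, -2.62 at 26 months and -3.40 at 28 months. Its ranges overlapped too, from -4.94 to -3.30 at 8 months and from -4.49 to -0.977 at 28 months. Both differences include Npas2, which had between 1 and 23 counts in a library. The difference of Arntl and Dbp alone, as log2(CPM + 0.5), had medians of -2.26, -2.24, -2.78 and -2.80 from 8 to 24 months, then -0.305 at 26 months and -1.29 at 28 months. No mouse of 8 to 24 months was above -1.33, whereas the highest mouse reached 2.07 at 26 months and 3.01 at 28 months. At each of these ages 5 of 9 mice were above that value and 4 of 9 were not. At 28 months replicates 9 and 8, at -1.292 and -1.363, lay close to it on either side. Arntl and Dbp had the lowest r of the pairs of members compared below. Their difference was not set beforehand, and its wide spread is no support separate from that r.

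**Figure D3:**
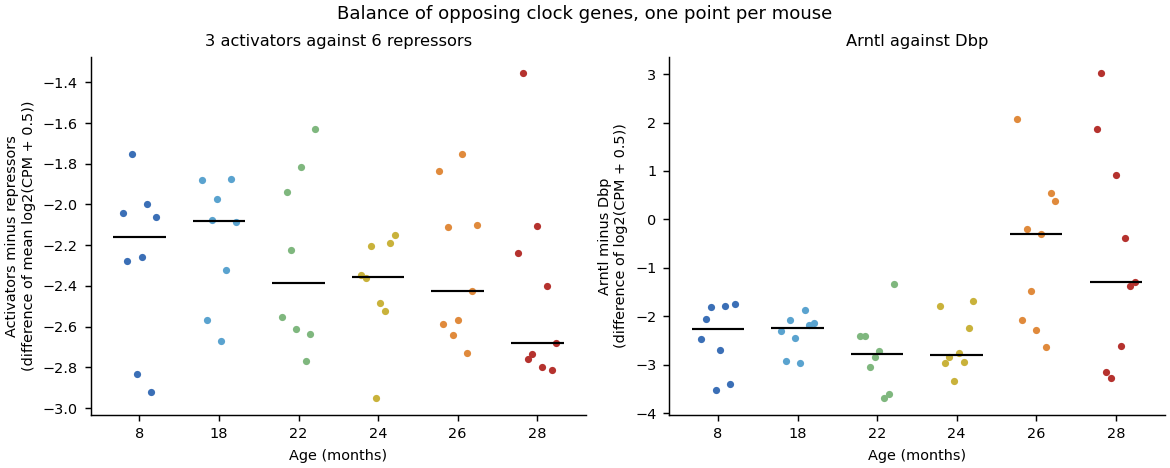
Balance of opposing clock genes against age in months, 1 point per mouse and a line for the median of each age, as differences of log2(CPM + 0.5). Left, the 3 activators minus the 6 repressors, with medians of -2.16 at 8 and -2.68 at 28 months. Right, Arntl minus Dbp, where the mice of 26 and 28 months spread up to 2.07 and 3.01.

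The spread between mice of the same age was itself large for most members. After the mean of each age was subtracted, the SD of log2(CPM + 0.5) over the 50 mice was 0.756 for Dbp, 0.556 for Arntl, 0.490 for Cry2 and 0.450 for Per1, beside a median of 0.202 over 9190 genes with a mean of at least 5 CPM. Dbp stood at the 99.4th percentile of these genes, Arntl at the 97.6th, Cry2 at the 96.3rd and Cry1, the least variable member, at the 43.5th. A test of the spread was added after the data had been seen, limma on the absolute deviation of each mouse from the median of its age. Cry2 deviated by a mean of 0.0899 at 8 months and 0.775 at 28 months on the log2 scale, a difference of 0.685 that passed (FDR 0.00209), against 0.175% of all genes. Dbp deviated by 0.254 and 1.04 (FDR 0.0493) and Nr1d1 by 0.0713 and 0.388 (FDR 0.167), which did not pass at 0.01. At 26 months 0 of 9 members and 0% of all genes passed this limma test, and 4 of 9 members had an unadjusted p under 0.05, against 6.25% of all genes, Cry2, Nr1d1 and Dbp with a higher and Per1 with a lower spread than at 8 months.

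Members were also compared in pairs within an age. Pearson's r was computed over the 50 mice for the 45 pairs of members from log2(CPM + 0.5) with age means subtracted, and tested with 100000 two-sided permutations of mice within their age and Benjamini-Hochberg adjustment over the 45 pairs. There were 17 pairs that passed an adjusted p of 0.05, 8 with a positive and 9 with a negative r, and 16 of them also passed by Spearman's rho. Arntl and Dbp gave r = -0.863 (rho = -0.811), adjusted permutation p = 9e-05 for r and 0.00015 for rho, where the raw p of 1e-05 is the smallest these permutations can give. Without the 2 mice farthest from the median of Arntl, r was -0.816. It was negative in 6 of 6 ages, from -0.135 at 18 months to -0.976 at 28 months. Of 12585 genes, Dbp had the lowest r to Arntl, while Arntl had rank 26 from the lowest by r to Dbp. An absolute r of at least 0.5 to Arntl was reached by 5 of the 8 other members tested, against 16.4% of all genes, and one to Dbp by 3 of 8, against 24.5% of all genes. For Clock and Cry2 it was 2 of 8 members each, against 21.4% and 22.7% of all genes, for Per3 2 of 8 (6.02%), and for Per1 and Nr1d1 0 of 8 (1.03% and 1.15%).

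From log2(CPM + 0.5), genes of like role were among the pairs with a positive r and among those with a negative r. The repressor Per1 gave a positive r with Per2 (0.415, adjusted permutation p = 0.0176) and Cry2 (0.352, adjusted permutation p = 0.016). Nr1d1, also a repressor, gave a negative r with Per2 (-0.448, adjusted permutation p = 0.00582) and Per1 (-0.314, adjusted permutation p = 0.0347). From log2(TPM + 0.5) neither passed, with r = -0.247 to Per2 (adjusted permutation p = 0.159) and -0.183 to Per1 (adjusted permutation p = 0.275). The activator Clock and the repressor Cry2 gave r = 0.498 (adjusted permutation p = 0.00481). This r was 0.158 in the 32 mice of 8 to 24 months (adjusted permutation p = 0.636). In the 18 mice of 26 and 28 months it was 0.719 (adjusted permutation p = 0.0067). Arntl went with its partners Clock (r = 0.677, rho = 0.652, adjusted permutation p = 9e-05 and 0.00015) and Npas2 (r = 0.603, rho = 0.578, adjusted permutation p = 0.000193 and 0.00063), and r without the 2 farthest mice was 0.644 and 0.587. Many other genes had as high an r, since of 12585 genes Clock had rank 222 by r to Arntl and Arntl rank 316 by r to Clock. Arntl and Nr1d1 gave r = -0.091 (adjusted permutation p = 0.753). Clock and Npas2 gave r = 0.686 (rho = 0.597, adjusted permutation p = 9e-05 and 0.00015) and 0.612 without the 2 farthest mice, and among 12586 genes Clock had the highest r to Npas2. The r of Clock and Npas2 was positive in 5 ages and -0.127 at 24 months. Npas2 had between 1 and 23 counts in a library, so its r values are limited by depth. An absolute r of 0.5 to Npas2 was reached by 2 of 9 members, against 2.91% of all genes. Per2 and Per3, both period genes, gave r = 0.753 (rho = 0.673, adjusted permutation p = 9e-05 and 0.000225) and 0.644 without the 2 farthest mice. Per3 had the highest r to Per2 of all 12585 genes, and 2 of 8 members reached 0.5 to Per2 (2.08% of all genes), these being Per3 and, with a negative sign, Arntl. Cry1 reached 0.5 with 0 of 8 members (0.421% of all genes), and none of its 9 pairs passed the permutation test for r or for rho.

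**Figure D4:**
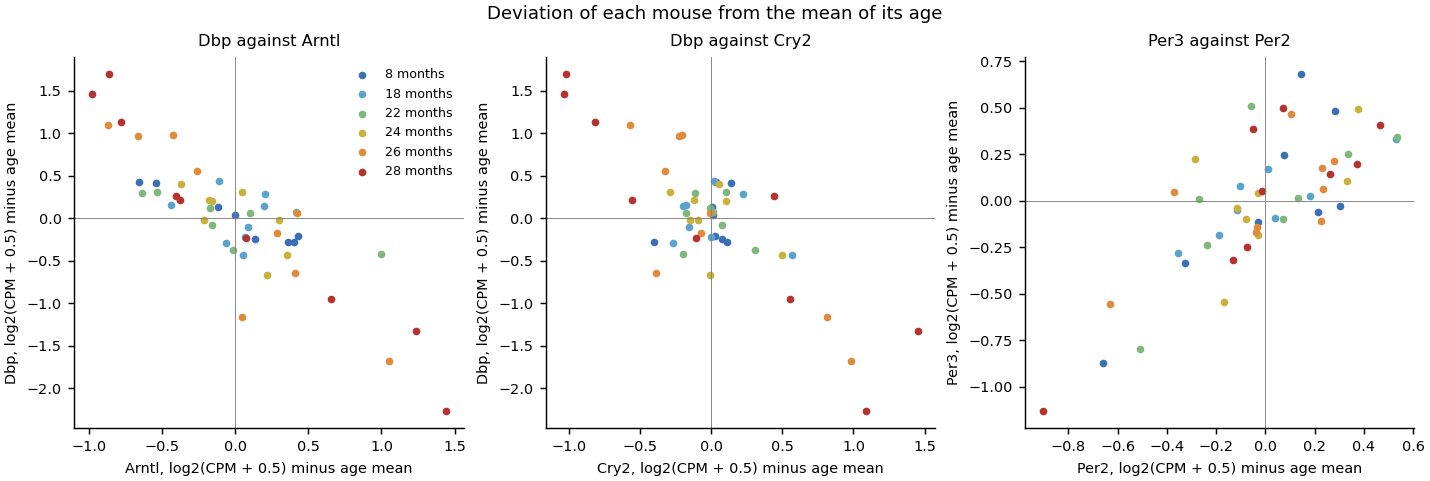
Deviation of each of the 50 mice from the mean of its age, in log2(CPM + 0.5), for Dbp against Arntl, Dbp against Cry2 and Per3 against Per2, coloured by age. Over all mice r is -0.863, -0.798 and 0.753, and in the middle panel the mice of 26 and 28 months span the range of both genes.

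The r values of Cry2 were also read within subsets of ages. Over all 50 mice Cry2 and Dbp gave r = -0.798 (rho = -0.495, adjusted permutation p = 9e-05 and 0.00927), and -0.744 without the 2 farthest mice. Arntl and Cry2 gave r = 0.655 (rho = 0.393, adjusted permutation p = 0.00145 and 0.0429), and 0.518 without the 2 farthest mice. Of 12585 genes Cry2 had rank 167 from the lowest by r to Dbp and rank 301 from the highest by r to Arntl. In the 32 mice of 8 to 24 months Cry2 gave r = -0.178 with Dbp (adjusted permutation p = 0.59) and -0.0666 with Arntl (adjusted permutation p = 0.812). In the same mice its r with the period genes was 0.595 to Per2 (rho = 0.577, adjusted permutation p = 0.0045 and 0.00855) and 0.564 to Per3 (rho = 0.628, adjusted permutation p = 0.0021 and 0.00157). In the 18 mice of 26 and 28 months, a subset chosen after the data had been seen, Cry2 gave r = -0.882 with Dbp (rho = -0.87, adjusted permutation p = 0.000225 and 0.000675) and 0.848 with Arntl (rho = 0.839, adjusted permutation p = 0.00081 and 0.00144). In these older mice its r was -0.405 to Per2 (rho = -0.373, adjusted permutation p = 0.252 and 0.327) and -0.306 to Per3 (rho = -0.323, adjusted permutation p = 0.434 and 0.392), and over all 50 mice it was -0.0993 and -0.0345 (adjusted permutation p = 0.753 and 0.925). The difference between the younger and the older mice in these r values was not tested. Arntl and Dbp passed in both subsets, with r = -0.65 (adjusted permutation p = 0.0009) and -0.94 (adjusted permutation p = 0.00015).

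**Figure D5:**
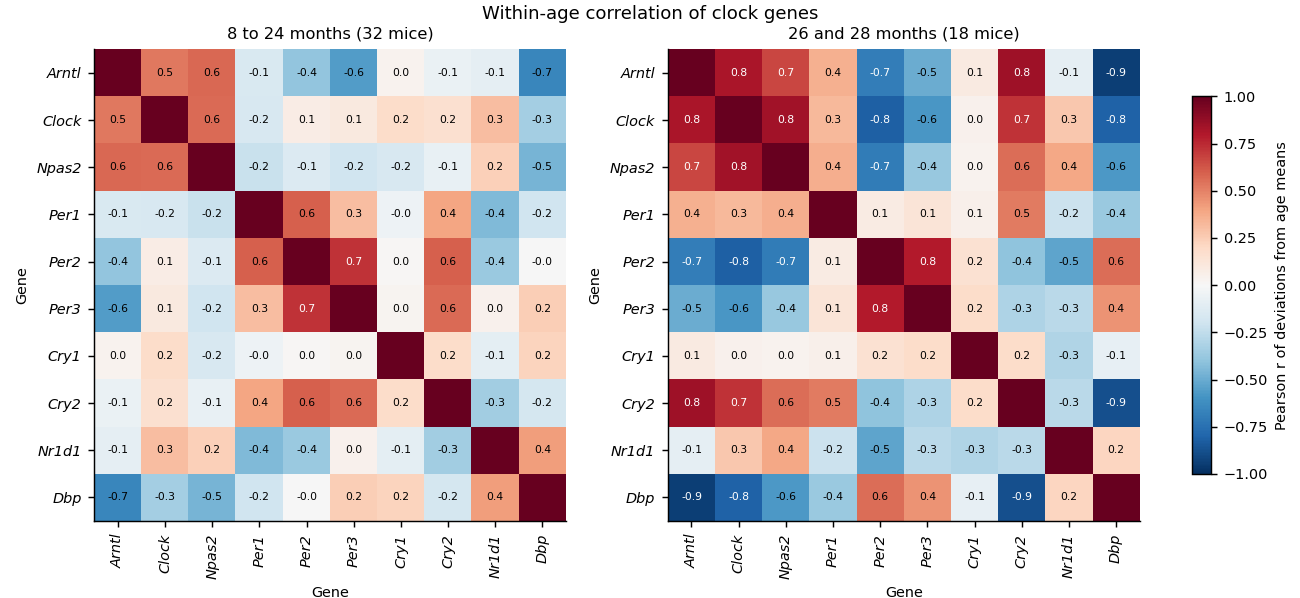
Pearson r of deviations from age means for the 45 pairs of members, in the 32 mice of 8 to 24 months (left) and the 18 mice of 26 and 28 months (right), with r rounded in each cell. Arntl and Dbp are opposed in both, and Cry2 and Dbp have r = -0.178 on the left and -0.882 on the right.

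The values of single mice show the order at the old ages. At 28 months replicates 1, 2 and 5 had the 3 highest levels of Cry2, at 502, 391 and 270 CPM, and the 3 lowest levels of Dbp, at 11.3, 5.64 and 14.8 CPM. Replicates 3, 4 and 6 had the 3 lowest levels of Cry2, at 89.1, 90.2 and 104 CPM, and the 3 highest of Dbp, at 81.2, 95.6 and 64.5 CPM. At 26 months replicates 1 and 8 had the highest Cry2 levels, 252 and 224 CPM, and the lowest Dbp levels, 9.55 and 13.9 CPM. Nr1d1 did not follow this order. It stood at 40.1, 89.7 and 66.1 CPM in replicates 1, 2 and 5 of 28 months and at 95.3, 92.7 and 70.5 CPM in replicates 3, 4 and 6. Replicate 2 of 28 months was also unusual in its markers of cell types. Its fast-fibre sum was the lowest of that age (108800 TPM, the next 141200 TPM). Its macrophage sum was the highest (527.7 TPM, the next 268.7 TPM). The part of this composition in its clock gene levels was not tested.

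The genes whose level was most like that of Arntl, Dbp and Per1 were sought among 9181 genes other than the members, by r over the 50 mice with age means subtracted and with no test. For Arntl the highest were Cebpz (0.824), Nol9 (0.804), Las1l (0.792), Ftsj3 (0.792) and Fbxo31 (0.789), and the lowest were Igsf8 (-0.794), Mief2 (-0.793), Serpinf1 (-0.787), Sh3glb2 (-0.783) and Fap (-0.764). Nol9, Las1l and Ftsj3 are known for their part in ribosome assembly. For Dbp the highest were Col6a2 (0.860), Rcn3 (0.847), Plpp7 (0.845), Col6a1 (0.843) and Col1a2 (0.834), of which 3 encode collagen chains, and the lowest were Slc7a6 (-0.903), Sertad2 (-0.901), Sesn1 (-0.899), Ddx21 (-0.896) and Gtpbp4 (-0.892). For Per1 the highest were Arrdc2 (0.824), Ddit4 (0.779), Tob2 (0.769), Slc25a25 (0.728) and Glul (0.713), and the lowest were Tram1 (-0.592), Cnot8 (-0.565), Nudt4 (-0.541), Arl5a (-0.540) and Ctsc (-0.538). Ddit4, an inhibitor of mTORC1, and Glul, glutamine synthetase, are both known to be induced by glucocorticoids. The mice share 1 library each, so depth and composition of a library enter both genes of a pair.

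Other genes of the clock were read from a list of 18, of which 15 were tested. At 28 months against 8 months 5 of them rose and 2 fell, and at 26 months 2 rose and 2 fell, while 0 passed at 18, 22 and 24 months. Of all genes 39.6% were called at 28 months and 18.4% at 26 months. The median log2 fold change of the 15 at 28 months was 0.10. Nfil3, a repressor that competes with Dbp for D-boxes, rose by 1.38 (SE 0.40, FDR 0.00375), with a mean of 38.7 ± 19.3 CPM (SD, n = 8) at 8 months and 101 ± 118 CPM (SD, n = 9) at 28 months. Rora, the receptor that activates Arntl through the element at which Nr1d1 represses, rose by 1.01 (SE 0.19, FDR 2.5e-05). Bhlhe41, also called Dec2, a repressor at E-boxes, fell by 1.21 on the log2 scale (SE 0.19, FDR 2.39e-06), and Hlf, a relative of Dbp that binds D-boxes, fell by 0.72 (SE 0.18, FDR 0.000783). Of 11 output genes, all tested, 1 rose at 28 months and 0 fell, the riser being Gys1, muscle glycogen synthase (log2 fold change 0.28, SE 0.08, FDR 0.00367), and their median was -0.03.

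Genes that answer to glucocorticoids, the hormones to which Per1 also responds, moved at the same ages. Of the 10 genes listed, 9 were tested. Of these, 5 rose at 26 months and 7 at 28 months, 0 fell, and 0 passed up to 24 months. Of all genes 9.84% rose at 26 months and 21% at 28 months. The median log2 fold change of the 9 was 0.85 at 28 months. Cebpd, a transcription factor, rose by 2.82 (SE 0.50, FDR 1.27e-05) and Ddit4 by 2.21 (SE 0.55, FDR 0.000778). Cebpd was low, with a mean of 0.658 ± 0.334 CPM (SD, n = 8) at 8 months, under the 1 CPM of the filter. At 28 months its mean was 4.71 ± 4.42 CPM (SD, n = 9), so its fold change starts near the floor. The summed level of the 9 genes lay between 558 and 1093 TPM at 8 months and between 585 and 2896 TPM at 28 months. At 28 months it was 2896, 2371 and 2103 TPM in replicates 1, 2 and 5, the mice with the lowest Dbp, and 585, 1000 and 1020 TPM in replicates 3, 4 and 6, the mice with the highest Dbp. This split was not particular to these genes. In replicates 1, 2 and 5 the other clock genes summed to 1565, 1419 and 1248 TPM. In replicates 3, 4 and 6 they summed to 1085, 1184 and 1072 TPM. The denervation list below gave 74.78, 35.14 and 43.87 TPM against 22.63, 25.15 and 22.36 TPM. The output genes were not split, at 7103, 9712 and 6670 TPM against 6785, 6648 and 8042 TPM. The part of the glucocorticoid genes in the levels of the clock genes was not tested.

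Further lists bear on handling and temperature. Of all genes tested, 21% rose and 18.7% fell at 28 months. Of 8 immediate early genes, which answer to handling within minutes, 5 were tested, and at 28 months 2 fell, Fosb with a log2 fold change of -2.645 (SE 0.59, FDR 0.000259) and Egr1 with one of -1.18 (SE 0.38, FDR 0.00767), while 0 rose. Of 8 temperature-responsive genes 6 were tested, and the cold-inducible RNA-binding proteins Rbm3 and Cirbp rose at 28 months by 0.97 (SE 0.20, FDR 8.22e-05) and 0.68 (SE 0.15, FDR 0.00023), while 0 fell. Counts of called markers of cell types and of denervated fibres are to be read beside the same shares of all genes. Of the denervation list 3 of 4 genes were tested and all 3 rose at 28 months, with sums of 9.7 to 16.9 TPM at 8 months and 22.4 to 74.8 TPM at 28 months. Of the macrophage markers 2 of 4 rose (109.8 to 204 TPM at 8 months and 183 to 528 TPM at 28 months in sum), 3 of 4 adipocyte markers fell (30.6 to 148 and 23.6 to 50.5 TPM), 2 of 4 fibroblast markers fell (580 to 877 and 543 to 755 TPM), and 1 of 3 erythroid markers rose (622 to 2316 and 412 to 4212 TPM). Of the fast-fibre markers 1 of 6 rose, and 0 of 3 slow-fibre, 0 of 4 endothelial and 0 of 4 Schwann cell markers passed. Their part in the values of the clock genes was not tested.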

How the data were processed

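RNA was read as stranded mRNA libraries from both ends. Reads were trimmed by the authors with Cutadapt 1.9.1 and assigned with kallisto 0.43.1 to the protein-coding transcripts that Ensembl lists on GRCm38, and a read that fits several of them was divided evenly. The authors summed transcripts into genes and deposited the counts without normalization. They also deposited TPM values, which they scaled to transcript length and library size. The age of each mouse was taken from its label.

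Differences between ages were tested on the counts with the quasi-likelihood test of edgeR 4.0.16 (R 4.3.3), with TMM factors and all 6 ages in 1 fit. Genes needed 1 CPM or more in 8 mice or more, p-values were adjusted by Benjamini-Hochberg over these 12586 genes, and the threshold was an FDR of 0.01. The SE is the log2 fold change divided by the root of its F statistic. DESeq2 1.42.0, limma 3.58.1 on log2(TPM + 1), upper-quartile factors, no filter, the 2 ages alone, a replicate block and leaving out each mouse were alternatives. Correlations used log2(CPM + 0.5) in Python 3.11.15 with numpy 2.4.6 and scipy 1.17.1, and alternatives were TPM, a pseudocount of 0.1, no subtraction of age means, and the mice of 8 to 24 months alone. The spread test and the subset of 26 and 28 months were added after the data had been seen. The difference of Arntl and Dbp alone was not set beforehand. The procedures were tested on simulated data. Errors are those between mice.

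The members, the gene lists and the tests were chosen with earlier results of these data known. All 10 members are named. From each list at most the 2 largest increases and the 2 largest decreases at 28 months past the threshold are named, with the counts of the whole list. For Arntl, Dbp and Per1 the 5 genes with the highest and the 5 with the lowest r are named, among genes with a mean of at least 5 CPM. The listed genes Cebpb, Jun, Ier2, Hspa1a and Hspa1b were not analysed here. Labels give the same replicate numbers at each age, and nothing states that they pair mice. Pairs of libraries of an age differed by more than sampling noise, with a variance at least 7.47 times that of counting.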

Additional observations from a re-analysis of the deposited data

Results flagged for a closer look

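Within each of 6 ages the highest and the lowest mouse were compared with the nearest other mouse for each of the 10 members, 60 groups in all, and 4 values stood apart by Dixon's criterion. Chance gives such a value in about 1 in 20 groups. Clock stood at 86.7 CPM in replicate 2 of 28 months, the next mouse being at 57.6 CPM, and at 60.2 CPM in replicate 1 of 26 months, the next being at 48.0 CPM. Cry2 stood at 49.2 CPM in replicate 3 of 8 months, where the next lowest mouse was at 65.4 CPM, and at 117 CPM in replicate 1 of 24 months, where the next highest was at 88.6 CPM. Cry2 at 28 months, whose mice spread from 89.1 to 502 CPM, was not among them.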

How the results depend on the processing

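The calls of Cry2 and Nr1d1 at 26 and 28 months and of Per1 at 28 months kept their direction and passed under each of the 6 alternatives and with each of 17 mice left out. With mice left out, 2 to 3 members passed at 26 months, 3 to 5 at 28 months and 0 at 18, 22 and 24 months. For the log2 fold changes of the 9 members at 26 and 28 months and 10 of the 45 pairs, 144 of 158 alternatives kept the direction and the side of the threshold, 9 lost the call, 4 gained one and 1 changed its sign. For the fold changes with single mice left out the numbers were 294 of 306, 5, 7 and 0. Among these 10 pairs the one whose sign changed was Arntl with Cry2, at r = -0.0666 without the mice of 26 and 28 months. Of all 45 pairs 10 changed sign in that subset, 1 of them among the 17 that passed over all mice, and 2 passed with the changed sign, Per2 and Per3 with Cry2. With TPM 9 changed sign, without subtraction of age means 7 and in the mice of 26 and 28 months alone 4, none among the 17. In the subset of 8 to 24 months 11 pairs passed instead of 17, and 9 of these were among the 17. Cry2 with Dbp, Arntl with Cry2, Arntl with Per2 (r = -0.398) and Clock with Dbp (r = -0.343) did not pass. Nor did Clock with Cry2 (r = 0.158), Per1 with Cry2 (r = 0.396), Per2 with Nr1d1 (r = -0.374) and Npas2 with Per2 (r = -0.138). The cause was not tested. With TPM 18 pairs passed, 13 with a positive and 5 with a negative r, with a pseudocount of 0.1 CPM 16, and without subtraction of age means 22. The median of activators minus repressors at 28 minus that at 8 months was -0.518, and 0.314 for Arntl and Npas2 against Nr1d1, Per3 and Dbp, which is a different set of genes.

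With the replicate number as a block, 3 members passed at 26 months (Dbp in addition) and 4 at 28 months, and no other call changed. Mice of the same number at 2 ages had deviations that correlated by -0.584 to 0.406, with a mean of 0.0378 beside -0.00469 for other numbers. Of 50 mice 12 correlated best with their own number. The number that chance would give was not computed, so these values do not exclude a structure by number. Since no label states a pairing, the main fit did not read the numbers as pairs. Npas2, with at most 23 counts in a library, is limited by depth.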
